A study of Mus musculus with 2 samples.

Results

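The 10 mouse genes described here write, remove or read DNA methylation: Dnmt1, Uhrf1, Dnmt3a, Dnmt3b, Tet1, Tet2, Tet3, Tdg, Mbd1 and Mbd2. They were chosen by name and found in the GENCODE M21 annotation, where they are 10 of 21938 protein-coding genes. Open chromatin around them was measured by DNase-seq, which maps stretches of DNA that the enzyme DNase I can cut, in whole right cerebral cortex of untreated female adult B6CASTF1/J mice aged 18 to 20 months. These animals came from The Jackson Laboratory, and B6CASTF1/J is the F1 hybrid of C57BL/6J and CAST/EiJ. The series holds 2 biological replicates of this 1 group and no control, so the comparisons are between genes, between start sites of a gene and between replicates. Both replicates carry the same donor identifier, and nothing in the labels says that they came from separate animals, so the spread between them may be technical.

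In mammals a methyl group sits mostly on the cytosine of CpG dinucleotides. De novo methyltransferases place it, a maintenance methyltransferase copies it to the new strand at replication, and TET enzymes oxidise it so that base excision repair can restore an unmodified cytosine. Adult neurons no longer divide, and brain is a tissue known for high levels of oxidised methylcytosine and of methylation outside CpG.

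All 10 genes had a peak near at least 1 of their annotated start sites in both replicates. For Tet1, Tet3 and Dnmt3b the start with the highest value was not that of the longest protein. Dnmt3a was open at the start of its long isoform and closed at the internal start of its short isoform. Tet3 was open at the start of a shorter protein, and Tet1 was open only at an internal start of a transcript with no protein. The strongest promoters belonged to Mbd1 and Dnmt1, and the weakest to the de novo methyltransferases Dnmt3a and Dnmt3b. Tet3 and Dnmt3a held most of the open regions inside genes.

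Sequences of the open regions are given first, since several of the results below are about which start of a gene was open. They are the GRCm38.p6 (mm10) reference of RefSeq, which is that of C57BL/6J and not of the hybrid's CAST/EiJ alleles, and each runs 5′ to 3′ on the strand of its gene. Capitals mark bases that lay in a footprint of both replicates. A footprint is a short stretch inside an open region that DNase I cut less than its surroundings, as the authors called it in each library. The pair of Dnmt3a sequences are the 120 bases before the start of the 908-codon protein, chr12:3806910-3807029, which was open, and the 120 bases before the start of the 689-codon protein, chr12:3891608-3891727, which was closed; both are on the plus strand. The open one holds 15 CpG dinucleotides and the closed one 7.
Dnmt3a, start of the long isoform: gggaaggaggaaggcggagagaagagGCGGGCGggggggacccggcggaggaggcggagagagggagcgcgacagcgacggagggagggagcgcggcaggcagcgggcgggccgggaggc
Dnmt3a, start of the short isoform: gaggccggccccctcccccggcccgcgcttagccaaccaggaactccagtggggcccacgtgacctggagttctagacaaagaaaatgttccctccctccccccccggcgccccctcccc

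The next set shows regions whose shared footprints hold a string searched for below; no sequence is printed for Mbd1 and Mbd2. The Dnmt1 site, chr9:20952932-20952957 on the minus strand, lies in a transcribed first exon and holds the palindrome of the transcription factor NRF1, the 10 bases centred on GCATGC. The Dnmt3b region, chr2:153668861-153669040 on the plus strand, is intronic. The Uhrf1 region, chr17:56304081-56304280 on the plus strand, and the Tet2 bases, chr3:133544391-133544480 on the minus strand, hold GC boxes (GGGCGG or its complement) inside shared footprints.
Dnmt1, footprint: cCGTTGCGCGCATGCGCACTCccttc
Dnmt3b, intronic region: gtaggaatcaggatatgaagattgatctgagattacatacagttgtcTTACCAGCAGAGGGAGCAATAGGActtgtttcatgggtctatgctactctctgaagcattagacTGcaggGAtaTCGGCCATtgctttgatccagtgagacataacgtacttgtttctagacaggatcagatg
Uhrf1, promoter: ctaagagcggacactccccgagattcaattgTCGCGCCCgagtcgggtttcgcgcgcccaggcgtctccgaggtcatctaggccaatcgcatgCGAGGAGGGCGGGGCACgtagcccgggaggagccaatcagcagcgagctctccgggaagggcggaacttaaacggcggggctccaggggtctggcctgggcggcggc
Tet2, promoter: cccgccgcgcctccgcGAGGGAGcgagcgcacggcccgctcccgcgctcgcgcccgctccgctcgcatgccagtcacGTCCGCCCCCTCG

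The last set lets the open region inside Tet1 be set beside open promoters of Tet3 and Tdg. The Tet1 bases are chr10:62865241-62865540 on the minus strand, the Tet3 bases chr6:83441676-83441820 on the minus strand and the Tdg bases chr10:82629661-82629827 on the plus strand. The 300 Tet1 bases hold 4 CpG dinucleotides, against 12 in the 145 Tet3 bases and 16 in the 167 Tdg bases.
Tet1, internal region: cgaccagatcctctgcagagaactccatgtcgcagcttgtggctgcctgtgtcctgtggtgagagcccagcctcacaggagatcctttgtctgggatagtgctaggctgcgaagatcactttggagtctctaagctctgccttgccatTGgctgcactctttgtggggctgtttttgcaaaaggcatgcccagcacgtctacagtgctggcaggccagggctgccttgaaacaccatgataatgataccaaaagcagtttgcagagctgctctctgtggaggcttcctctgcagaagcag
Tet3, promoter: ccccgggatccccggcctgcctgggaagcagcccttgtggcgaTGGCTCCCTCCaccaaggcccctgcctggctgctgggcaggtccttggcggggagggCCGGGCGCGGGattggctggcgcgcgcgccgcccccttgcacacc
Tdg, promoter: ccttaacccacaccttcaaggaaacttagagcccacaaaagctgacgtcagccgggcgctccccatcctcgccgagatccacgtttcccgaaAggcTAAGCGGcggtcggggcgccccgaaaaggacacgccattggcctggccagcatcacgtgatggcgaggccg

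Each library came with a longer and a shorter list of peaks, and the shorter lists, of 86601 peaks in replicate 1 and 88482 in replicate 2, were used unless the longer ones are named. The value given for a peak is the signal that the authors deposited with it, and no source used here says how it was scaled. The values within a library were whole multiples of 1 step. If a step is 1 read per M reads (M for mega), replicate 1 held 201 M reads and replicate 2 held 112 M, a depth inferred from the values and not stated by the files. Over 12692 genes with a promoter peak in both replicates, values were a median of 1.41 times as high in replicate 2 as in replicate 1, and 93.5% of these genes were higher in replicate 2. Promoters of cortical neuron markers were open in both for 7 of 9 genes and of astrocyte markers for 4 of 5, against 2 of 5 for oligodendrocytes, 1 of 4 for microglia, 1 of 3 for endothelium, 0 of 4 for inhibitory neurons and 0 of 8 for other tissues. In the longer lists all 4 inhibitory neuron markers were open, with 9 of 9 for cortical neurons, 3 of 5 for oligodendrocytes, 1 of 8 for other tissues and the other counts as before. Over all protein-coding genes the share was 57.9% in the shorter lists and 62.4% in the longer ones. In the shorter lists the neuron marker Rbfox3 and the astrocyte marker Slc1a2 had their strongest peaks at different positions in the 2 replicates. Both were named after their values were seen. In bulk tissue, fewer cells with an open site and a site that is less open in each cell cannot be told apart.

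A start site counted as open where a peak came within 500 bp of it, and a gene took the value of its strongest such peak. By this measure all 10 were open in both replicates, against 57.9% of all protein-coding genes. The 10 were chosen by name and genes are not replicates, so the difference between these shares was not tested. In the longer lists the count was again 10 of 10, against 62.4% of all genes. With the stronger 50% of peaks it was 9 of 10, and the share of all genes was not computed for that setting. A gene with more annotated starts has more chances to count as open. Per group of neighbouring starts, 26.4% of 53 groups of the 10 genes were open in both, against 29.1% of 52546 groups of all genes. The median of the 10 mean values was 2.82, close to the 2.71 of all 12692 genes open in both, whose middle 50% lay between 1.60 and 4.05. By value, then, 6 of the 10 lay above the median of open promoters and 4 below it. With starts of protein-coding transcripts alone, 9 of 10 had a peak in both, against 56.6% of all genes, because Tet1 had none. When the peaks of both replicates also had to overlap there, 8 of 10 remained, since those of Dnmt3b did not touch each other.

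**Figure D1:**
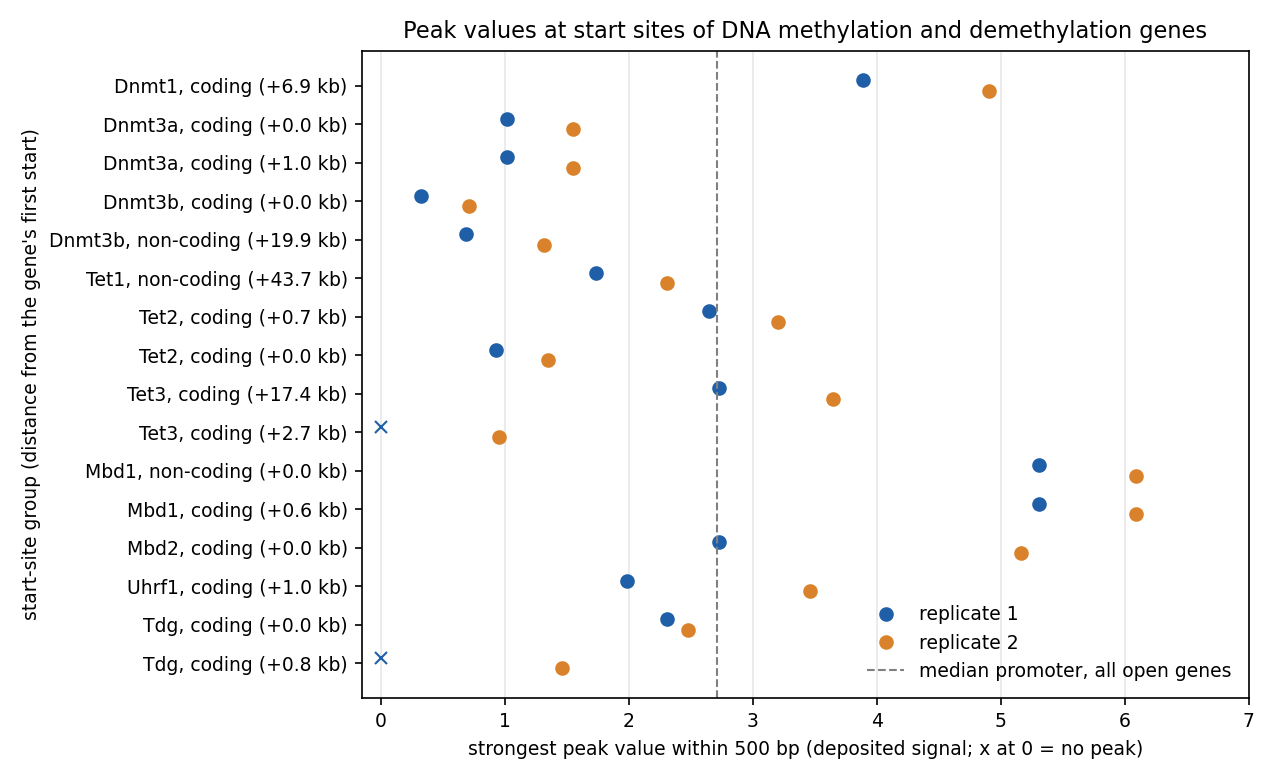
Peak values (deposited signal, horizontal axis) at each start-site group of the 10 genes with a peak in at least 1 replicate, with replicate 1 in blue, replicate 2 in orange, and a cross at 0 for no peak. The dashed line is the median of 2.71 over all genes open in both replicates. Mbd1 sits between 5.31 and 6.09, and both Dnmt3a groups show the same peak at 1.01 and 1.55.

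Maintenance of methylation needs Dnmt1, the enzyme that copies methylation to the new strand, and Uhrf1, the protein that recognises half-methylated CpG and brings Dnmt1 to it. Dnmt1 (ENSMUSG00000004099.16, chromosome 9, 20907209 to 20959888, minus strand) had promoter values of 3.89 in replicate 1 and 4.90 in replicate 2, a mean of 4.40 ± 0.719 (SD, n = 2). That was higher than 79.9% of open promoters. The peak covered chr9:20952821-20953060 in both replicates. It held the starts at 20952845 and 20952979 and lay within 500 bp of the rest of their group, down to 20952605, which it did not reach. This group gives the longest protein, of 1620 codons. Replicate 2 had a further peak of 1.62 just downstream, at chr9:20952601-20952720, which replicate 1 lacked. A start further upstream, at 20959888, is annotated for a protein of 1501 codons and had no peak in any list. In mouse, a form of Dnmt1 with a shorter N terminus is known from oocytes, where an upstream first exon is used; whether the annotated start is that exon was not tested.

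Uhrf1 (ENSMUSG00000001228.14, chromosome 17, 56303321 to 56323486, plus strand) had 1.99 in replicate 1 and 3.46 in replicate 2, a mean of 2.72 ± 1.04 (SD, n = 2), at the middle of open promoters. Its annotation has a pair of starts about which the data differ. The peak at chr17:56304081-56304280 lay 33 bp before the starts at 56304313 to 56304407, while the starts at 56303321 to 56303400, which lead to the same protein of 782 codons, had no peak in any list. The open start of Uhrf1 was the one richer in CpG, with 33 CpG dinucleotides in 300 bp, against 12 at the closed one.

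The de novo enzymes had the weakest promoters of the family. Dnmt3a (ENSMUSG00000020661.15, chromosome 12, 3806007 to 3914443, plus strand), the main de novo methyltransferase of neurons after birth, had 1.01 in replicate 1 and 1.55 in replicate 2, a mean of 1.28 ± 0.380 (SD, n = 2), higher than 17.3% of open promoters. This peak, chr12:3806907-3807043 in replicate 1 and chr12:3806963-3807018 in replicate 2, lay at the start of the 908-codon isoform, known as Dnmt3a1, at 3807030, which the peak of replicate 1 covered and that of replicate 2 did not reach. It also lay within 500 bp of the neighbouring starts at 3806007 to 3806527. The internal start of the 689-codon isoform at 3891728 to 3891744, known as Dnmt3a2 and abundant in embryonic stem cells, had no peak in any of the 4 lists. No base within 500 bp of it was listed with a false discovery rate (FDR) under 0.05 in either replicate. These intervals come from the same libraries as the peaks and are not independent of them. The nearest open regions were an intronic one at chr12:3887581-3887900, with 2.02 in replicate 1 and 1.55 in replicate 2, and a peak of 0.850 at chr12:3892896-3893056 in replicate 1 alone. None of the other 9 internal start groups of Dnmt3a was open either. The promoter window of the open start held 47 CpG dinucleotides, at percentile 98.3 of all promoter windows.

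Dnmt3b (ENSMUSG00000027478.15, chromosome 2, 153649450 to 153687730, plus strand), the de novo enzyme used mostly in the early embryo, was the weakest of the 10. Its highest promoter values were 0.686 in replicate 1 and 1.32 in replicate 2, a mean of 1.00 ± 0.448 (SD, n = 2), higher than 11.0% of open promoters. That peak was not at the start of a protein: it lay in an intron at chr2:153668861-153669040, 330 bp before the start of a non-coding transcript at 153669370. At the starts of all the coding transcripts, 153649450 to 153649617, replicate 1 had a peak of 0.323 and replicate 2 a peak of 0.713. These peaks, chr2:153649492-153649603 and chr2:153649621-153649860, did not overlap. With coding starts alone the mean for Dnmt3b was 0.518.

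The TET enzymes, which oxidise methylcytosine, differed in which start was open. Tet2 (ENSMUSG00000040943.12, chromosome 3, 133463679 to 133545139, minus strand) had 2.65 in replicate 1 and 3.20 in replicate 2 at the start of its 1920-codon protein, a mean of 2.93 ± 0.390 (SD, n = 2). A second region upstream, chr3:133544581-133545300, had 0.924 in replicate 1 and 1.35 in replicate 2 and also touched a start of the non-coding gene Gm42567. Both open regions of Tet2 were thus at the 5′ end, and its 5 internal start groups had no peak in any list.

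Tet3 (ENSMUSG00000034832.15, chromosome 6, 83362373 to 83459084, minus strand), the TET enzyme known for high expression in neurons, had 2.72 in replicate 1 and 3.65 in replicate 2, a mean of 3.19 ± 0.653 (SD, n = 2). This region, chr6:83441541-83441820, lies at the start of the 1668-codon protein and also at a start of B230319C09Rik. The start of the longest protein, of 1803 codons, at 83456392 had no peak in replicate 1 and one of 0.954 in replicate 2. In the longer lists it had 0.557 in replicate 1 and 0.954 in replicate 2. The first start, at 83459084, had none in any list. Values at the start of the 1668-codon protein were therefore higher than those at the start of the longest one in both replicates. The longest mouse Tet3 protein is known to carry a CXXC domain that binds CpG, which the shorter form lacks.

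Tet1 (ENSMUSG00000047146.17, chromosome 10, 62804570 to 62908996, minus strand), abundant in embryonic stem cells, was the clearest case of an open site away from the protein's start. Its promoter values of 1.73 in replicate 1 and 2.31 in replicate 2, a mean of 2.02 ± 0.406 (SD, n = 2), came from the start of a non-coding transcript at 62865304, which leaves 1418 of the 2039 codons of the longest protein downstream. The starts of the longest proteins, at 62899118 with 2039 codons and at 62880014 with 2007, had no peak in any list. Among coding starts only that at 62892986, annotated with 47 codons, had a peak in the longer lists, with 0.278 in replicate 1 and 0.392 in replicate 2. The internal region is shown above and is poor in CpG.

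Tdg (ENSMUSG00000034674.18, chromosome 10, 82629828 to 82650799, plus strand), the glycosylase that removes the oxidised bases, had the closest raw values of the 10, with 2.31 in replicate 1 and 2.48 in replicate 2. Most genes were higher in replicate 2, so relative to that shift Tdg was higher in replicate 1. Its mean was 2.39 ± 0.122 (SD, n = 2), higher than 42.9% of open promoters. The peak lay at the start of the longest protein, of 421 codons. A neighbouring start at 82630667 was within 500 bp of a peak of replicate 2 alone, with a value of 1.46.

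The readers Mbd1 and Mbd2 bind methylated CpG and recruit repressive complexes, and they were among the strongest. Mbd1 (ENSMUSG00000024561.10, chromosome 18, 74267605 to 74282732, plus strand) had 5.31 in replicate 1 and 6.09 in replicate 2, a mean of 5.70 ± 0.553 (SD, n = 2), higher than 92.4% of open promoters. Both of its values exceeded every value of the other 9 genes. Mbd2 (ENSMUSG00000024513.16, chromosome 18, 70568189 to 70626131, plus strand) had 2.73 in replicate 1 and 5.16 in replicate 2, a mean of 3.95 ± 1.72 (SD, n = 2). Its rank among the 10 therefore depended on the replicate, close to Tet3 in replicate 1 and above Dnmt1 in replicate 2. Each had 1 open region, at the start of its longest protein of 644 codons for Mbd1 and 414 codons for Mbd2.

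In order of the mean, the 10 genes ran Mbd1, Dnmt1, Mbd2, Tet3, Tet2, Uhrf1, Tdg, Tet1, Dnmt3a and Dnmt3b. Mbd1 at the top stood clear of its neighbour in both replicates, and Tet1 stood clear of Dnmt3a below it. Between the other neighbours the ranges of both replicates overlapped, and with 2 libraries no test between genes was made. Within each replicate the order was the same, except that Mbd2 was above Dnmt1 in replicate 2 and below it in replicate 1, and Uhrf1 was above Tet2 and Tdg in replicate 2 and below them in replicate 1. Tet1, Dnmt3a and Dnmt3b were the lowest 3 in each replicate taken alone.

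All 10 genes were higher in replicate 2, as were 93.5% of all genes. Once the median difference of all genes was taken out, the log2 difference of replicate 1 minus replicate 2 lay between -0.45 for Dnmt3b and 0.39 for Tdg. For 7 of the 10 it was within 1 SD of all genes, 0.35 on the log2 scale. The others were Dnmt3b and Mbd2, at -0.42, which were relatively higher in replicate 2, and Tdg, which was relatively higher in replicate 1. In absolute size, the differences of Dnmt3b, Mbd2 and Tdg lay at percentiles 81.4, 79.3 and 75.8 of all genes open in both. Differences of this size were thus not particular to them. On the inferred depth, the value of Mbd2 in replicate 1 came from 549 reads, with an exact 95% Poisson interval of 2.51 to 2.97, and that in replicate 2 from 579 reads, with one of 4.75 to 5.60. These intervals cover counting error only.

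**Figure D2:**
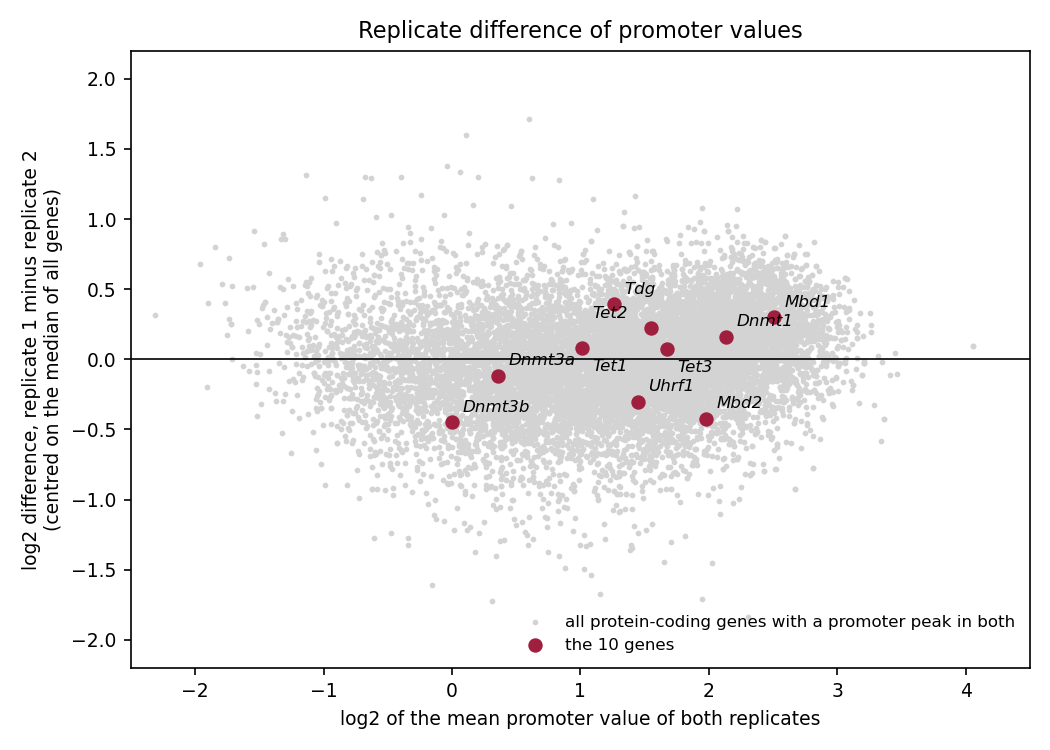
Log2 difference of promoter values, replicate 1 minus replicate 2 and centred on the median of all genes (vertical axis), against the log2 of the mean value (horizontal axis), for 12692 genes in grey and the 10 genes in red. The 10 lie inside the grey cloud, between -0.45 and 0.39.

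Over all their transcripts the 10 genes have 53 groups of start sites, where starts within 500 bp of one another were joined. In 14 groups both replicates had a peak (26.4%), against 29.1% of 52546 groups of all protein-coding genes, a share near the background. In the longer lists it was 16 groups, against 33.4% of all. Groups with a coding transcript were open in 11 of 33 cases for the 10 genes, against 40.9% of all such groups, and groups without one in 3 of 20, against 7.27%. The 3 were those of Dnmt3b, Tet1 and Mbd1, and the last shares its peak with the coding start of Mbd1. For 34 of the 53 groups no peak was found in either longer list, and for all 34 no base within 500 bp had an FDR under 0.05. Peaks and FDR intervals come from the same libraries, so the second observation is not independent of the first. Such groups were not counted over all genes.

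CpG content went with openness for most but not all of the starts. RefSeq gives 13 promoter windows of 300 bp for 8 of the genes, from 250 bp before to 50 bp after a start; Mbd1 and Mbd2 were not matched. Over all 21263 such windows 48.8% had a peak in both replicates, and the share was 1.95% for windows with 0 to 2 CpG dinucleotides and 84.1% for those with 21 to 67. Of the 8 windows of these genes with 21 or more, 7 were open, and the exception was the coding start of Dnmt3b, with 30. That window held the peak of replicate 1 only, although within 500 bp this start had a peak in both replicates. The open windows of Dnmt3a overlap each other and share a peak, and those of Dnmt1 also share a peak. Of the 5 windows with fewer, 1 was open, the Dnmt1 window at 20952979 with 12. The closed ones were the internal Dnmt3a start with 18, a Tet1 start with 17, the upstream Uhrf1 start with 12 and the upstream Dnmt1 start with 2. Among all windows with 16 to 20 CpG dinucleotides, where the closed starts of Dnmt3a and Tet1 lie, 79.6% were open.

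**Figure D3:**
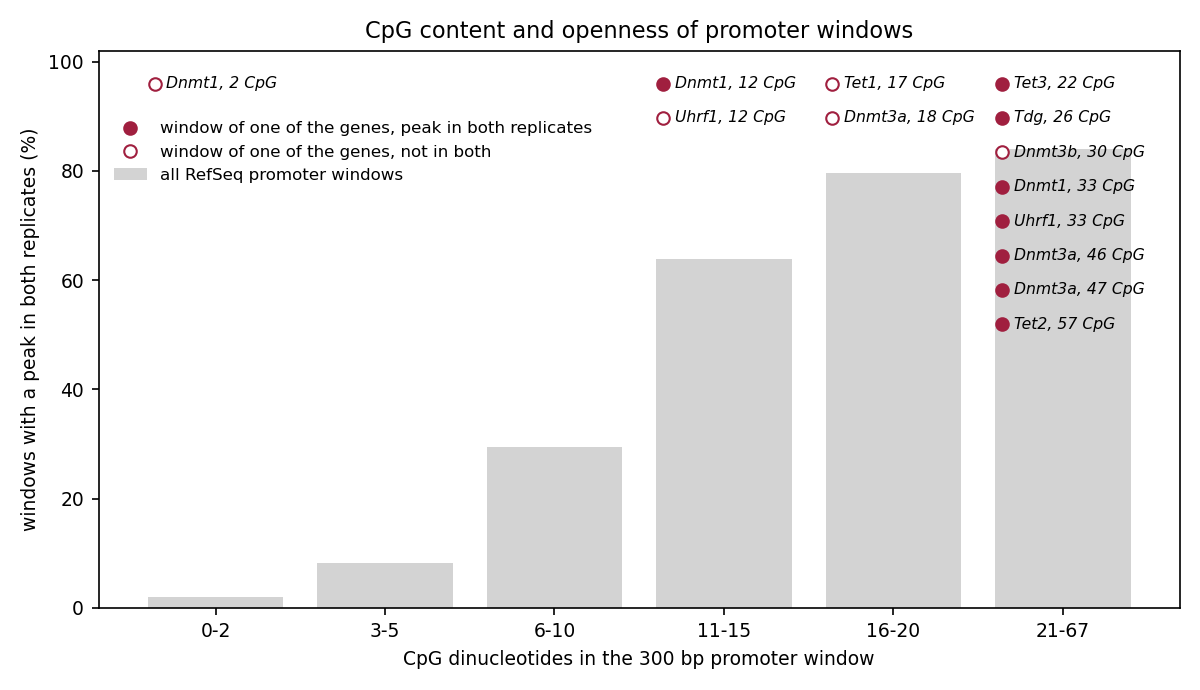
Share of RefSeq promoter windows with a peak in both replicates (grey bars, percent) by the number of CpG dinucleotides in the 300 bp window. The circles name the windows of the genes at their CpG count, filled where open in both and empty where not, and their height has no meaning. The Dnmt3b, Dnmt3a and Tet1 windows with 30, 18 and 17 CpG dinucleotides are empty although most windows of such content were open. The Dnmt3b window held a peak of replicate 1 only.

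Inside the genes, outside 500 bp of any start, 21 regions were open in both replicates. Tet3 held 9 of them and Dnmt3a 6, followed by Tet1 with 3 and Dnmt1, Dnmt3b and Tet2 with 1 each. Uhrf1, Tdg, Mbd1 and Mbd2 held none, and the median over all genes was 0. Long genes hold more such regions, so each count was set beside genes of 1/1.5 to 1.5 times the length. Tet3 had more than 98.4% of 2405 genes of like length and Dnmt3a more than 87.7% of 2203, while Tet1, of about the same length as Dnmt3a, had more than 56.1% of 2255.

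The Tet3 regions crowded around its open start. Of the 9, 6 lay between 15.5 and 20.3 kb from the gene's first start, on either side of the open start of the 1668-codon protein, and 4 were in exons of Tet3. The strongest, chr6:83440461-83441120, lay 512 bp from that start, just outside the 500 bp counted as promoter. It had 2.42 in replicate 1 and 2.22 in replicate 2. The promoter beside it was higher in both replicates, with the wider gap in replicate 2. Start-site windows of 2000 bp, which take in several of these regions as promoter, left 13 regions inside the 10 genes. The rank of Tet3 among genes of like length thus depends on the 500 bp limit, and it was not computed with the wider windows.

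The Dnmt3a regions were all intronic and lay between 11.3 and 81.7 kb from the first start. The strongest was chr12:3817141-3817380, 11.3 kb from the first start, with 1.61 in replicate 1 and 2.42 in replicate 2. Each replicate there was above its own value at the promoter. The mean over both replicates was above that of the promoter, 1.28, in 5 of the 6 regions and 1.11 in the sixth. In Tet1 the strongest region inside the gene, chr10:62851101-62851360, had 1.98 in replicate 1 and 2.08 in replicate 2, both inside the range of the open internal start. The others were chr2:153680061-153680260 in Dnmt3b with 1.09 in replicate 1 and 1.41 in replicate 2, chr9:20910032-20910276 in Dnmt1 with 0.830 and 1.36, and chr3:133543210-133543421 in Tet2 with 0.492 and 1.03, in the same order.

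**Figure D4:**
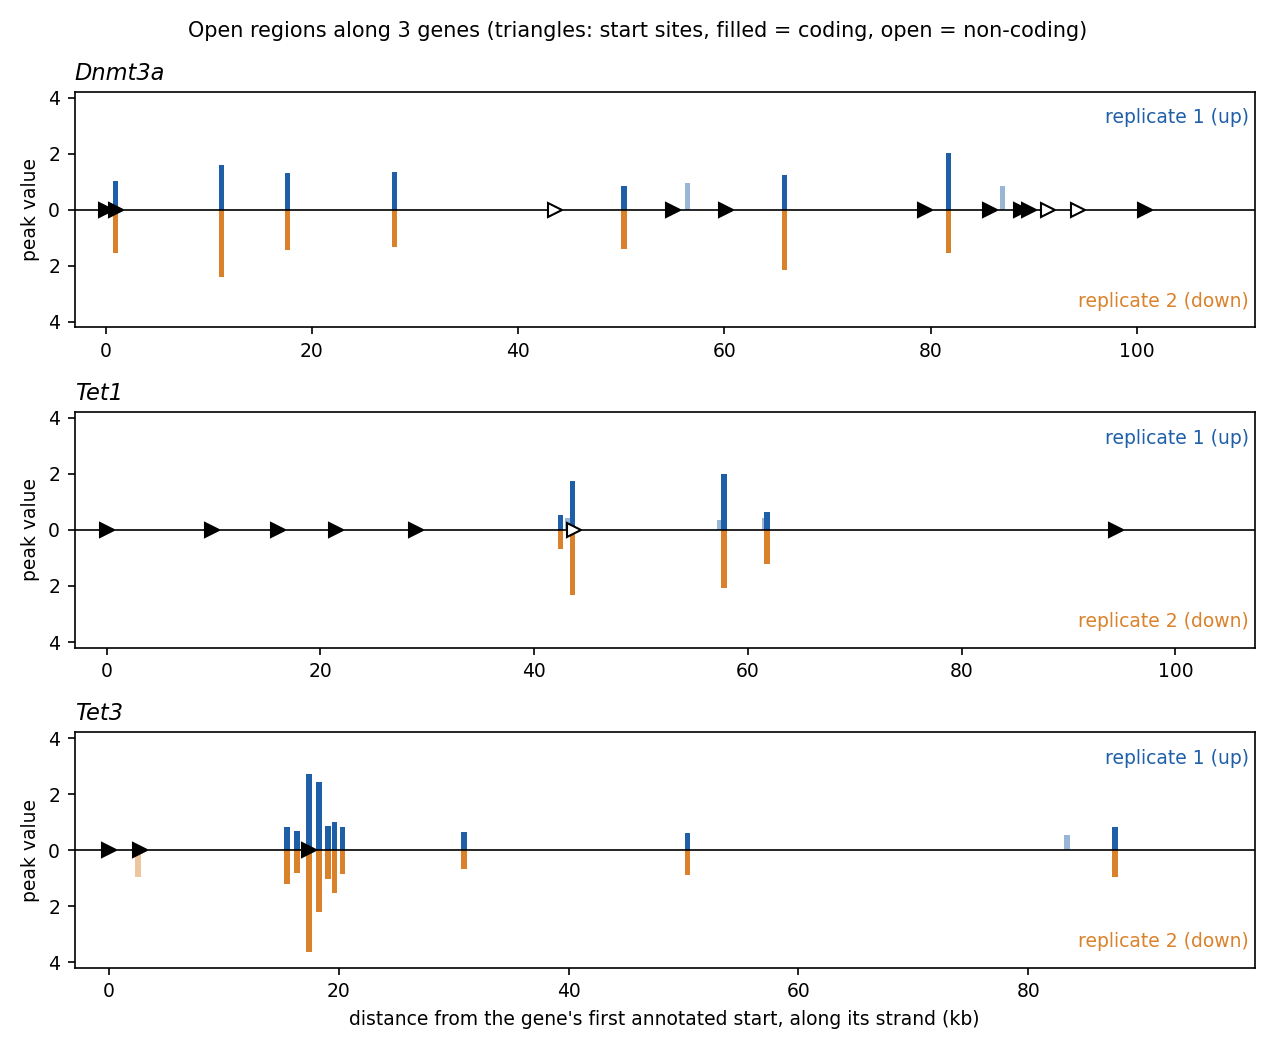
Open regions along Dnmt3a, Tet1 and Tet3 by distance from the first annotated start (kb), with replicate 1 values upward and replicate 2 values downward; pale bars were called in 1 replicate only, and bars are drawn wider than the regions. Triangles are start sites, filled where coding. Dnmt3a shows 7 shared regions, the last 81.7 kb from the first start, Tet1 none near its first coding starts, and Tet3 a cluster around the start of its 1668-codon protein.

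Outside the genes but within 100 kb of a start, 56 regions lay open in both replicates and away from the starts of all genes. Uhrf1 had 13, Dnmt1 8, Tet3 and Tdg 7 each, Dnmt3a, Dnmt3b and Mbd2 5 each, Tet2 3, Mbd1 2 and Tet1 1, against a median of 4 over all genes. Of the 56, 5 had one of the 10 as the nearest protein-coding gene: 2 at Tet2, 2 at Mbd2 and 1 at Dnmt3a. The matching share over all genes was not computed, so this count is a description only. The median of the mean values of the 56 was 1.37, against 0.930 for 46328 shared regions of the whole genome away from starts. The whole-genome set is wider, as it also holds regions inside the genes and regions more than 100 kb from a start. The medians are thus not of like sets. A further 39 shared regions within the same distance were at starts of other genes, the strongest that of Mapre1 near Dnmt3b.

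The strongest distal region near Dnmt1, chr9:20878141-20878480, had 6.69 in replicate 1 and 8.21 in replicate 2, above the promoter of Dnmt1 in both. It lay downstream of the gene and nearest to Angptl6. Near Uhrf1, chr17:56255901-56256160 had 4.95 in replicate 1 and 6.53 in replicate 2 and was nearest to Fem1a. Near Dnmt3a, chr12:3791881-3792120 had 3.66 in replicate 1 and 4.70 in replicate 2. It ended 13887 bp before the gene's first start, nearest to a start of Dtnb, and was above the Dnmt3a promoter in both replicates.

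The strongest distal regions of the other genes were lower. Near Tdg, chr10:82666541-82666760 had 1.66 in replicate 1 and 4.68 in replicate 2, and near Mbd1, chr18:74170081-74170320 had 2.18 and 1.90. Near Mbd2, chr18:70652241-70652440 had 1.43 and 2.35, and near Tet3, chr6:83509541-83509760 averaged 1.71, with 1.93 in replicate 2. Those of Tet2, with chr3:133600941-133601180 at 1.32 and 1.44, and Dnmt3b, with chr2:153609601-153609820 at 1.05 and 1.69, were close to the median. Tet1 had the fewest distal regions of the 10, with 1 at 0.418 in replicate 1 and 0.588 in replicate 2.

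Footprints inside the 11 shared promoter regions of the 10 genes numbered 45 in replicate 1 and 53 in replicate 2, which is 13.6 and 16.0 per kb. Over all shared regions at start sites there were 12.7 per kb in replicate 1 and 13.2 in replicate 2. Of those in replicate 1, 32 overlapped a footprint of replicate 2 (71.1%, against 63.6% for all start sites), and of those in replicate 2, 31 overlapped one of replicate 1 (58.5%, against 59.0%). Mbd1 had 6 in replicate 1 and 8 in replicate 2, and all 6 were matched. In Mbd2 all 5 of replicate 1 met one of replicate 2, but 1 did so over at least 50% of both footprints, against all 6 in Mbd1. The second Tet2 region, of 720 bp, held 1 in each replicate and these did not meet, and in the internal Tet1 region 1 of the 2 in replicate 1 met 1 of the 8 in replicate 2, over 2 bases.

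**Figure D5:**
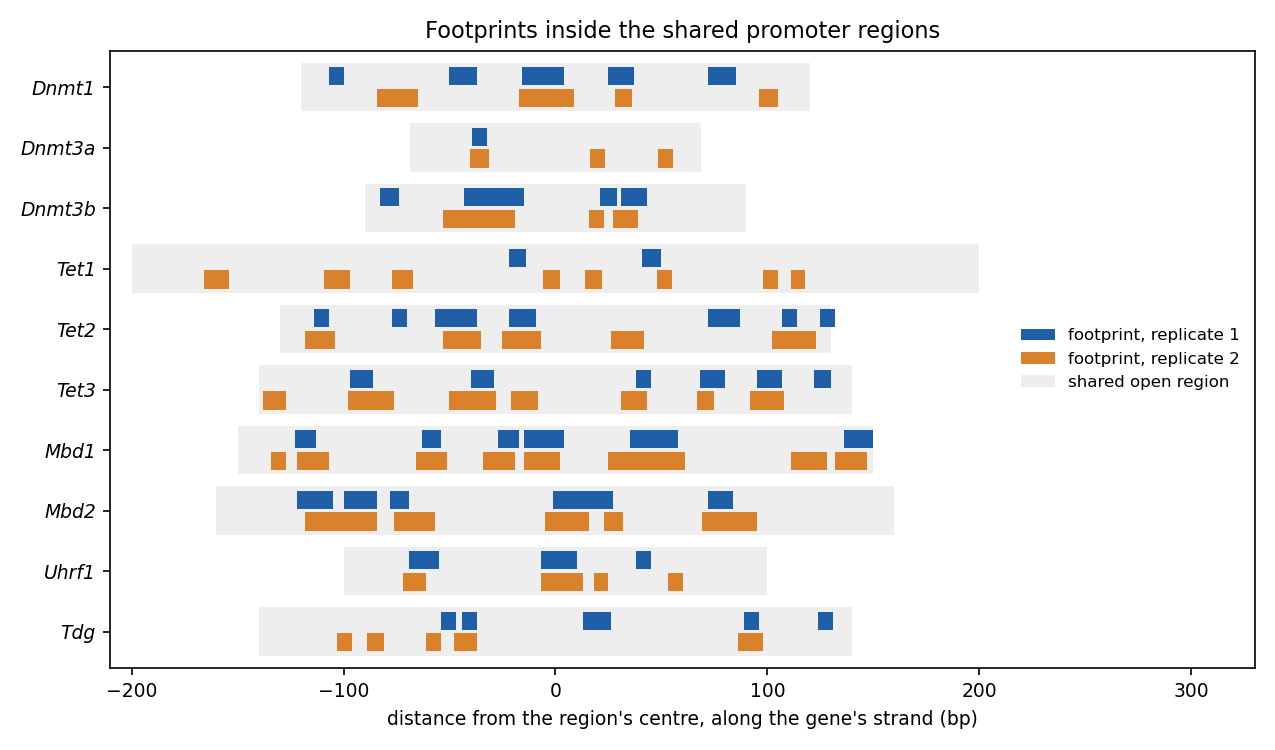
Footprints of replicate 1 (blue, upper) and replicate 2 (orange, lower) inside the shared promoter region of each gene (grey), by distance from the region's centre along the gene's strand (bp). The second Tet2 region is left out. All 6 footprints of replicate 1 in Mbd1 meet one of replicate 2, and the long ones near the centre of Dnmt1, Dnmt3b and Uhrf1 recur in both.

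The shared promoter regions were searched as a whole, on both strands, for short strings known for transcription factors. Those of Mbd1 and Mbd2 were not searched, so nothing is said of strings there. Each match was then set beside the footprints, and a match is a description of the sequence only. In Dnmt1 the NRF1 palindrome, at chr9:20952941-20952950, lay wholly inside a footprint of both replicates. It is rare, found in 1.33% of the 21263 promoter windows and in 2.53% of the open ones. Over all 65097 shared regions it matched 402 times, and 77.4% of the matches lay wholly inside footprints of both replicates. The GC box GGGCGG, which the longer string of the SP and KLF factors contains, lay wholly inside footprints of both replicates in Tet2, where it overlaps the string AGGGGGC of CTCF, and in Uhrf1. It is common, found in 46.2% of promoter windows, and 22.1% of its 32550 matches in shared regions were covered in this way.

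In the intron of Dnmt3b the longest shared footprint, chr2:153668908-153668931, spans 24 bases, TTACCAGCAGAGGGAGCAATAGGA. The string first used for CTCF, which ends in AGGGGGC, does not match there. A looser one, of CCA, AG, GG and C with free bases between and after them, was added after this footprint had been seen and matches at chr2:153668911-153668924. In the middle 180 bases of shared regions it occurs in 3.81%, and 48.1% of its 2860 matches lay wholly inside footprints of both replicates. The cyclic AMP response element TGACGTCA in the Tdg promoter, at chr10:82629703-82629710, is held by 2.23% of promoter windows and was not covered in either replicate as a whole.

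Other genes of the pathway were mostly open as well. Of 46 listed cofactors, readers, TET partners, repair enzymes, CXXC proteins and enzymes of methyl donor supply, 42 were open in both replicates (91.3%, against 57.9% of all genes). All 9 repair genes, all 5 CXXC genes and all 6 methyl donor genes were open, with 6 of 8 cofactors of the methyltransferases, 9 of 10 readers and 7 of 8 TET partners. The 3 genes with no peak in either replicate were Dnmt3l, the germ cell partner of the de novo enzymes, Dppa3, a protein of oocytes and early embryos, and Zfp57, which keeps methylation at imprinted regions. Dnmt3l and Dppa3 had none in the longer lists either, whereas Zfp57 there had 0.333 in replicate 1 and 0.615 in replicate 2. Cxxc5, named after its values were seen, had 2.35 in replicate 1 and a peak in replicate 2 only in the longer list, at 2.17.

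High promoters of each role are given as means of both replicates (± SD, n = 2). Of the genes listed as readers, Mbd3, Mbd5 and Mbd4 averaged 6.19 ± 0.0468, 6.16 ± 1.34 and 5.98 ± 0.196, all above the mean of Mbd1. Whether each of them binds methylated CpG was not tested. Of the methyl donor genes, Mtr, the methionine synthase, averaged 4.38 ± 0.435 and Mat2a, which makes S-adenosylmethionine, 3.74 ± 1.26. The repair genes Xrcc1, a scaffold protein, Apex1, the abasic site nuclease, and Parp1, the break sensor, averaged 5.83 ± 0.167, 4.78 ± 2.25 and 3.52 ± 0.653. Of the CXXC proteins, Cxxc1 averaged 5.64 ± 1.64 and the histone methyltransferases Kmt2b and Kmt2a 4.43 ± 0.109 and 4.31 ± 0.0250. Gadd45b and Gadd45g, linked to active demethylation, averaged 5.27 ± 0.0390 and 4.12 ± 0.535, and Idh1, which makes the TET cosubstrate 2-oxoglutarate, had 3.28 in replicate 1 and 5.23 in replicate 2 from peaks at different starts. Among the cofactors of the methyltransferases, Pcna, the replication clamp, averaged 4.69 ± 0.368, Uhrf2 3.13 ± 0.584 and the deubiquitinase Usp7 2.57 ± 0.906.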

How the data were processed

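DNase-seq libraries of 2 biological replicates in 1 group were analysed from the processed files as deposited. The authors deposited per library 2 peak lists with a signal per peak, a list of footprints with a p-value threshold of 0.01 in all rows, and intervals with an FDR (q-value) under 0.05; coordinates are mm10, per the deposited descriptions. Aligner, callers, their versions and the scaling of the signal are not stated in any source used here. All values were whole steps within a tolerance of 0.1 steps, from which the depth was inferred. Peaks within 500 bp of GENCODE M21 start sites, inside genes and within 100 kb were collected, and an overlap of 1 bp made a region or footprint shared. Distal regions had no base within 500 bp of any gene's start. Python 3.11.15, numpy 2.4.6, pandas 2.3.3, scipy 1.17.1, matplotlib 3.10.9 and samtools 1.23.1 were used, and the steps were tested on simulated data. No p-value was computed, as there is 1 group. Alternatives varied the list, the strength of peaks, the windows, the overlap, the transcripts and the replicates. The genes, lists and strings were chosen with earlier results of these data known. Named are all 10 genes, their strongest region of each kind, the 3 highest promoters of each role in the pathway lists and those with none. A gene that this rule takes is not reported here.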

Additional observations from a re-analysis of the deposited data

How the results depend on the processing

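The counts most open to the processing were those outside promoters. The 21 shared regions inside the genes became 34 with the longer peak lists, 13 with the stronger 50% of peaks and 13 with start-site windows of 2000 bp. The 56 distal regions became 86 with the longer lists, 37 with the stronger 50% of peaks and 28 within 50 kb. Taking 1 replicate alone gave 10 to 10 genes with a promoter peak, 14 to 16 open start-site groups, 21 to 30 regions inside genes, 77 to 81 distal regions and 42 to 56 footprints, the last being 56 without replicate 1 against 32 shared. The mean of Dnmt3b was 0.518 with windows of 100 bp and with coding starts alone, the second being an alternative chosen after seeing the data, as was the looser CTCF string; Tet1 had no value with coding starts alone. The other 28 alternative values of the counts stayed within 1.5 times the main count. Values of single promoters with 1 replicate alone lie within 1 SD of a mean of 2 by construction and say nothing of stability. No paired analysis was possible because there is 1 group. Precision is limited by 2 libraries of unstated depth.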
